A study of Mus musculus with 17 samples.

Results

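The comparison described here set CD8 T cells in which Asxl1 had been targeted (Asxl1 KO) against cells targeted at Rosa (Rosa KO), which served as the control. Libraries were chosen by the genetic modification given in the labels, which left 9 of the 17 libraries of the series, namely 4 Asxl1 KO and 5 Rosa KO libraries. All came from mouse spleen, were labelled CD8 T cells, and carried CD8 and the congenic marker Thy1.1 in the genotype field. The other 8 libraries, 4 Tet2 KO and 4 Dnmt3a KO, entered the model and a second set of comparisons. The labels do not say how the genes were targeted, and the sources used here give no strain, age or treatment of the animals. No label states whether the replicates of a group were separate animals or cultures, so the p-values rest on the spread between libraries, and this spread may be technical.

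Asxl1 encodes a partner of the deubiquitinase Bap1. Together they form the Polycomb repressive deubiquitinase (PR-DUB), which removes ubiquitin from histone H2A and so opposes the mark that Polycomb repressive complex 1 writes. Mutations of ASXL1 are frequent in clonal hematopoiesis. In responding CD8 T cells, factors such as Zeb2 favour terminal effector cells that carry granzymes, Klrg1 and S1pr5, while Tcf7 maintains a stem-like pool, and the series title asks about CD8 T cell stemness during immunotherapy.

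By their numbers in the labels, the libraries formed 3 runs with gaps between them, TGK63 to TGK68, TGK81 to TGK86 and TGK124 to TGK136, called run 1, 2 and 3 here. The labels do not describe these runs as batches. Run 1 held Rosa KO 1 and Asxl1 KO 1, run 2 held Asxl1 KO 2 and no Rosa KO library, and run 3 held Rosa KO 2 to 5 and Asxl1 KO 3 and 4. Total counts ranged from 17387401 to 22056893 in Asxl1 KO and from 6625831 to 40701090 in Rosa KO. Asxl1 KO 3 and 4 had 16860 and 17940 genes with at least 1 count, above the other 7 libraries (12901 to 14825). Rosa KO 1 stood apart from the other controls in markers of B cells. The 17 B cell genes found in the files summed to 756 counts-per-million (CPM, scaled by TMM) in Rosa KO 1, to between 3562 and 3888 CPM in Rosa KO 2 to 5, and to between 858 and 1690 CPM in the 4 Asxl1 KO libraries. CD8 T cell markers, 9 genes in sum, reached 4745 to 12355 CPM in the Asxl1 KO libraries and 5196 to 7945 CPM in Rosa KO. In bulk RNA, fewer cells of a type and less RNA per cell cannot be told apart.

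Asxl1 itself had 70.3, 146.3, 87.3 and 114 CPM in Asxl1 KO 1 to 4 and 161, 98.2, 82.1, 91.7 and 83.7 CPM in Rosa KO 1 to 5. The groups overlapped, and both extremes lay in run 1, the lowest in Asxl1 KO 1 and the highest in Rosa KO 1. The log2 fold change was −0.13 ± 0.21, adjusted p = 0.836 by edgeR's quasi-likelihood test, with 0.17 within run 3 and −1.19 within run 1 (1 library each). Here and below, unless marked SD, ± gives an approximate standard error. It is the size of the log2 fold change divided by the square root of the test's F statistic. Over all libraries the RNA level did not pass, and a gene edited by a short insertion or deletion can keep its RNA, so this level does not check the labels. None of the 10 tested PR-DUB genes and none of the 32 tested genes of Polycomb repressive complexes 1 and 2 passed. Log2 fold changes in the PR-DUB list lay between −0.28 (Mbd5) and 0.40 (Mbd6). Of 39 Hox genes, the classical Polycomb targets, only Hoxb4 had enough counts to be tested, and it did not pass (0.86 ± 0.91, adjusted p = 0.715).

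In the model over all 17 libraries with group and run as terms, 113 of 13880 tested genes were higher in Asxl1 KO (0.814%) and 114 lower (0.821%), at an adjusted p under 0.05. The 227 genes (1.64%) included Zeb2, Gzma, S1pr5 and NK-type receptor genes among the lower ones. Among the higher ones were Tnfrsf9, Lag3, Pdcd1, Tcf7 and genes of T cell receptor signalling. Several of these also passed for Tet2 KO and Dnmt3a KO against Rosa KO, as given below. For 79 of the 227 the 4 Asxl1 KO and 5 Rosa KO libraries did not overlap at all. Over all tested genes, 386 (2.78%) had groups that did not overlap. For 157 of the 227, all 4 Asxl1 KO libraries lay on 1 side of the Rosa KO mean. The 227 were chosen by the test on these same libraries, so this count is not independent support. Its share over all tested genes was not taken. A set of 17 genes passed when any 1 of the 9 libraries was left out and in each of 9 other settings of the model and filter. Of these, Ctla2a, Tnfrsf9, Cxcr3, Lat, Serpina3g and Ier3 were higher, and Zeb2, Gzma, S1pr5, Ccl9, Cdc20b, Klre1, Itgam, Bhlhe40, Klrb1c, Klrg1 and Klra9 were lower. The 17 were drawn from the 90 called genes that are named here or belong to the gene lists, of which 48 lost their call without at least 1 library. Of 3 settings added after the data were seen, 2 left 13 of the 17 genes past the test and the other, within run 3, all 17. Run 3 alone was already 1 of the 9 settings that chose the 17, so this last result is not independent support. Without both Asxl1 KO 3 and 4, edgeR gave adjusted p = 0.0683 for Klrb1c, 0.0828 for Serpina3g, 0.0698 for Klrg1 and 0.284 for Ier3, and within run 1 Ccl9, Bhlhe40, Klrg1 and Ier3 did not pass. The run 1 setting takes its spread from the other libraries and assumes that a lone library varies like them. With no run term 19 of the 90 passed, and Cd7 (adjusted p = 0.192), Lag3 (0.249), Pdcd1 (0.188) and Il18rap (0.121) were among those that did not.

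Promoters of 4 of the 17 genes are shown, because Zeb2 belongs to a family of repressors known to bind the E-box CACCTG, and these 4 include each gene of the 17 that holds it. Sequences are RefSeq's for GRCm38.p6 and run 5′ to 3′ along the gene's strand from 250 bases before to 50 bases after a start site. They lie at chr13:113100932-113101231 (Gzma, minus strand), chr4:150919905-150920204 (Tnfrsf9, plus strand), chrX:101734098-101734397 (Cxcr3, minus strand) and chr9:21248394-21248693 (S1pr5, minus strand). Capitals mark the E-box, read as CACCTG or as its reverse complement CAGGTG.
Gzma: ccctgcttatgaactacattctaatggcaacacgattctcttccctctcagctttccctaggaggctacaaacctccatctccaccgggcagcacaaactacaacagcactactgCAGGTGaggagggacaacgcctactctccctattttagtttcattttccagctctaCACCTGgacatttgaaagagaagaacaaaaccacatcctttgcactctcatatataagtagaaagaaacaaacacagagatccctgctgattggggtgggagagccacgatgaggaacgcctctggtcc
Tnfrsf9: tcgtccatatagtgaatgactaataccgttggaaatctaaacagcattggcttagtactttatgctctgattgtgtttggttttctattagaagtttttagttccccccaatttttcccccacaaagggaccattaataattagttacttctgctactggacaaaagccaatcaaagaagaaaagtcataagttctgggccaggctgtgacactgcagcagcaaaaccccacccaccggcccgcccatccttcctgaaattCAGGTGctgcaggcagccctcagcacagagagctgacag
Cxcr3: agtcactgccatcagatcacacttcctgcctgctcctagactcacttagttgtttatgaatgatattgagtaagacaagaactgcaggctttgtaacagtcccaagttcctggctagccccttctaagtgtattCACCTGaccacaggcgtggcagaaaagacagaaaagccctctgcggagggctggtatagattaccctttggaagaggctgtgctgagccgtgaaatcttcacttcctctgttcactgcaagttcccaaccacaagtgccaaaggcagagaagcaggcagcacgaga
S1pr5: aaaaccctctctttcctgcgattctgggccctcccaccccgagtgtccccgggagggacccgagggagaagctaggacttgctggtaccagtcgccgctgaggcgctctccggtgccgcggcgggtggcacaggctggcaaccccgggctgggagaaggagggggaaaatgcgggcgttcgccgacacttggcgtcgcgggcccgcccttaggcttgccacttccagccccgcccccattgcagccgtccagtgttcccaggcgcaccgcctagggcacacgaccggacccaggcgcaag

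Gzma, which fell, held the E-box once in each orientation. Tnfrsf9 and Cxcr3, which rose, held it once each, and S1pr5, which fell, held none. RefSeq promoters were found for 15 of the 17 genes, all but Bhlhe40 and Klrg1, with 21 start sites among them. The E-box stood in 3 of these 21 (14.3%), in 18.4% of the promoters of tested genes, in 24 of 118 promoters of the higher genes (20.3%), in 17 of 121 of the lower genes, and in 20.2% of all 32851 promoters. No test was made of these shares. The AP-1 motif TGANTCA was in promoters of 4 of the 15 genes. It was in 5 of the 21 promoters, of which 2 are overlapping windows of Ctla2a with the same site, in 5.37% of the promoters of tested genes and 7.81% of all, and in 7.44% of the lower and 5.93% of the higher genes' promoters. The T-box motif AGGTGTGA or TCACACCT, which can overlap an E-box, was in none of the 21 and in 1.28% of all. Both strands were searched for each motif, and a match is a string of letters, not a bound site.

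Transcription factors of effector differentiation were led by Zeb2. Counts of called list members here and below stand against 0.814% of all tested genes higher and 0.821% lower. The lists were chosen with earlier results of these data known. Zeb2 (gene 24136, chr2:44983512-45117442), which drives terminal differentiation of effector CD8 T cells, had 307, 315, 222 and 201 CPM in Asxl1 KO 1 to 4 and 758, 1134, 1107, 1040.1 and 1366 CPM in Rosa KO 1 to 5. All 4 Asxl1 KO libraries lay below all 5 controls. The log2 fold change was −2.27 ± 0.21, adjusted p = 4.49e-07, with −2.47 within run 3 and −1.30 within run 1. Its antisense gene Zeb2os overlaps it at a mean of 6.29 CPM in Rosa KO, and the counts may not separate them. Bhlhe40, a repressor that supports cytokine production and mitochondrial fitness in T cells, had 265, 180.3, 249 and 374 CPM in Asxl1 KO 1 to 4 and 498, 717, 623, 633 and 753 CPM in Rosa KO 1 to 5. The groups again did not overlap, and the log2 fold change was −1.15 ± 0.16, adjusted p = 0.00022. Of 24 tested effector factors 4 fell, the other 2 being Klf6 (−1.29 ± 0.26, adjusted p = 0.0112) and Runx1 (−0.76 ± 0.19, adjusted p = 0.0391), and none rose. Klf6 was at 532 CPM in Rosa KO 1 and 537 CPM in Asxl1 KO 1, a log2 fold change of 0.01 within run 1 against −1.54 within run 3. Klf6 lost its call without Asxl1 KO 3 or 4, and Runx1 without Rosa KO 1, 3 or 5 or Asxl1 KO 3 or 4. Tbx21, the T-box factor T-bet, was at −0.18 ± 0.27, adjusted p = 0.815 and did not pass.

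Among 20 tested factors of stem-like and memory cells, 2 rose and 2 fell. Tcf7, which encodes TCF-1, had 383, 79.4, 99.2 and 67.6 CPM in Asxl1 KO 1 to 4 and 102, 17.3, 14.2, 22.7 and 24.6 CPM in Rosa KO 1 to 5. In each group the run 1 library was by far the highest, and Asxl1 KO was above Rosa KO within both shared runs (1.94 ± 0.26, adjusted p = 8.64e-05; 2.07 within run 3 and 1.91 within run 1). The 2 groups overlapped only through Rosa KO 1. The T-box factor Eomes, active in memory and exhausted CD8 T cells and in NK cells, had 479, 184, 196 and 255 CPM in Asxl1 KO 1 to 4 and 201, 93.4, 88.0, 107 and 72.4 CPM in Rosa KO 1 to 5. Its log2 fold change was 1.15 ± 0.19, adjusted p = 0.00128, and again Rosa KO 1 alone reached into the Asxl1 KO range. Neither Tcf7 (adjusted p = 0.188) nor Eomes (0.0817) passed in an edgeR fit with no run term. Lef1, the partner of TCF-1, fell (−1.11 ± 0.29, adjusted p = 0.0485), as did the quiescence factor Klf3 (−0.82 ± 0.21, adjusted p = 0.044). Both calls were lost without 6 (Lef1) or 7 (Klf3) of the 9 libraries in turn, and Klf3 was at 0.25 within run 1. Bach2, which restrains effector genes, was at −1.59 ± 0.45, adjusted p = 0.0878 and did not pass.

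**Figure D1:**
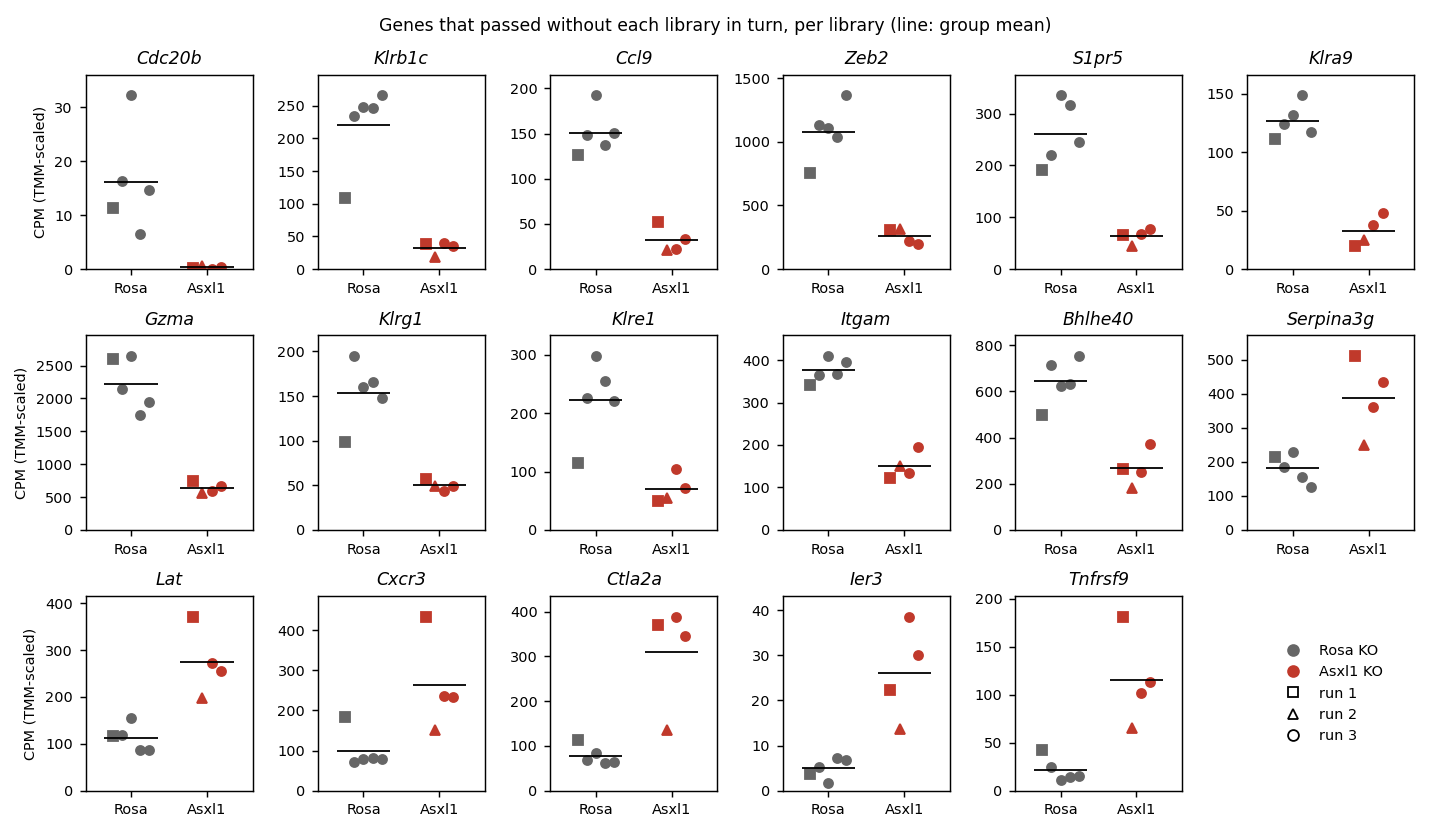
TMM-scaled CPM (vertical axis, starting at 0) of the 17 genes that passed without each library in turn and in 9 other settings, in each Rosa KO (grey) and Asxl1 KO (red) library. Squares, triangles and circles are runs 1, 2 and 3, and the line is the group mean. The groups do not overlap except for Cxcr3, where Rosa KO 1 (184 CPM) lies above Asxl1 KO 2 (152 CPM).

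Factors of exhausted T cells gave 2 rises among 14 tested genes. Tox, which sets the exhaustion programme, had 1730.5, 1024, 705 and 751 CPM in Asxl1 KO 1 to 4 and 1142, 456, 437, 501 and 538 CPM in Rosa KO 1 to 5. The run 1 libraries were the highest of each group, and the log2 fold change was 0.56 ± 0.14, adjusted p = 0.0349. Tox2, its relative, had 152, 20.6, 26.7 and 14.3 CPM in Asxl1 KO 1 to 4 and 28.4, 8.46, 6.04, 10.3 and 5.89 CPM in Rosa KO 1 to 5, with a log2 fold change of 1.75 ± 0.37, adjusted p = 0.0118. Tox lost its call without 7 of the 9 libraries and Tox2 without Asxl1 KO 1 or 3. The Nr4a family member Nr4a1, which antigen receptor signals induce, was at −1.22 ± 0.69, adjusted p = 0.408 and did not pass.

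Costimulatory and inhibitory receptors rose where they passed. Tnfrsf9 (gene 21942, chr4:150920155-150946104), which encodes the costimulatory receptor 4-1BB, had 181, 65.5, 101.4 and 114 CPM in Asxl1 KO 1 to 4 and 42.8, 24.5, 11.1, 14.5 and 15.6 CPM in Rosa KO 1 to 5. The lowest Asxl1 KO library lay above the highest control, and the log2 fold change was 2.63 ± 0.30, adjusted p = 1.18e-05, with 2.71 within run 3 and 2.08 within run 1. Cd7, an immunoglobulin family receptor of T and NK cells, had 626, 230.4, 732 and 529.5 CPM in Asxl1 KO 1 to 4 and 358, 192, 144, 139 and 117 CPM in Rosa KO 1 to 5. The overlap came from Asxl1 KO 2 and Rosa KO 1, the lowest and highest of their groups, and the log2 fold change was 1.71 ± 0.21, adjusted p = 3.27e-05. Cd27, a TNF family receptor that supports memory cells, rose by 0.74 ± 0.17, adjusted p = 0.0263, a call lost without 6 of the 9 libraries. None of the 20 tested members of this list fell. Of 18 inhibitory receptors, Lag3 and Pdcd1 rose and none fell. Lag3, which binds MHC class II, had 188, 78.5, 144 and 129 CPM in Asxl1 KO 1 to 4 and 95.6, 60.1, 53.5, 51.8 and 51.97 CPM in Rosa KO 1 to 5, with a log2 fold change of 1.27 ± 0.20, adjusted p = 0.000594. Pdcd1, which encodes PD-1, had 257, 155, 216 and 247.4 CPM in Asxl1 KO 1 to 4 and 199, 83.5, 124.3, 84.02 and 87.0 CPM in Rosa KO 1 to 5. All 4 Asxl1 KO libraries lay above the Rosa KO mean, Rosa KO 1 lay within their range, and the log2 fold change was 0.97 ± 0.18, adjusted p = 0.00429, with 1.28 within run 3 and 0.37 within run 1. Havcr2, which encodes TIM-3, did not pass (0.20 ± 0.18, adjusted p = 0.669). It was at −0.39 within run 1.

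Cytotoxic granule genes moved in both directions. Of 19 tested, Gzma and Gzmb fell and Serpina3g, Ctsw and Cst7 rose. Gzma (gene 14938, chr13:113093824-113100981), the granzyme with trypsin-like activity, had 749, 561, 588 and 671 CPM in Asxl1 KO 1 to 4 and 2596, 2145, 2642, 1747 and 1940.2 CPM in Rosa KO 1 to 5. The highest Asxl1 KO value was below the lowest control, and the log2 fold change was −1.81 ± 0.17, adjusted p = 4.49e-07. Gzmb, the main apoptosis-inducing granzyme, had 1153, 710.1, 1185 and 1013 CPM in Asxl1 KO 1 to 4 and 1716, 1557, 2089.6, 1488 and 1577 CPM in Rosa KO 1 to 5. These did not overlap either, the log2 fold change was −0.61 ± 0.13, adjusted p = 0.0145, and the call was lost without Asxl1 KO 4. Perforin (Prf1) was at 0.12 ± 0.20, adjusted p = 0.838, and Gzmk, a granzyme of memory-like cells, at 0.47 ± 0.17, adjusted p = 0.148. Neither passed. Serpina3g, a serpin that inhibits cathepsins and favours T cell survival, had 509.8, 248, 362 and 433 CPM in Asxl1 KO 1 to 4 and 214, 184, 228, 156 and 124.8 CPM in Rosa KO 1 to 5. Every Asxl1 KO library was above every control (1.13 ± 0.18, adjusted p = 0.000825). Ctsw, a cathepsin of cytotoxic lymphocytes, had 414, 217, 431 and 455 CPM in Asxl1 KO 1 to 4 and 177, 221, 260.3, 179.6 and 162 CPM in Rosa KO 1 to 5, with a log2 fold change of 1.01 ± 0.19, adjusted p = 0.00438. Cst7, which encodes the cathepsin inhibitor cystatin F, rose by 0.86 ± 0.16, adjusted p = 0.00334, with Asxl1 KO 2 (148 CPM) the exception below all controls. Ctla2a, a gene of activated T cells whose product resembles a cathepsin propeptide, had 371, 136.01, 388 and 346 CPM in Asxl1 KO 1 to 4 and 113, 69.4, 83.9, 61.6 and 63.5 CPM in Rosa KO 1 to 5. It was separated between groups (2.06 ± 0.21, adjusted p = 3.45e-06), with Asxl1 KO 2 far below the other 3, and may share reads with the near-identical Ctla2b.

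Cdc20b had 0.123, 0.518, 0.0903 and 0.439 CPM in Asxl1 KO 1 to 4 and 11.3, 16.2, 32.2, 6.57 and 14.7 CPM in Rosa KO 1 to 5, a log2 fold change of −6.28 ± 0.81, adjusted p = 6.55e-05. Cdc20b spans Gzma over 7158 bases and the gene Gpx8 over 3674, and Gpx8 averaged 7.21 CPM in Rosa KO and 0.493 CPM in Asxl1 KO. How reads were counted is not stated in the sources used here, so reads of these genes may not be separated, and a fitted fold of a gene this near 0 depends on the prior count.

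Of 24 tested NK-type receptors, which effector CD8 T cells share with NK cells, 7 fell and none rose, where 0.821% of all tested genes fell. Their median log2 fold change was −1.05, against 0.000364 over all tested genes. The list median was −1.16 within run 3 and −0.93 within run 1. Klrg1, a lectin receptor of terminal effector cells, had 56.6, 48.9, 44.04 and 49.7 CPM in Asxl1 KO 1 to 4 and 98.8, 195, 160.3, 165 and 148 CPM in Rosa KO 1 to 5. Klrb1c, the NK1.1 antigen, had 37.8, 17.7, 39.5 and 35.7 CPM in Asxl1 KO 1 to 4 and 108, 234, 248, 247.1 and 266 CPM in Rosa KO 1 to 5. Klre1, a lectin-like receptor known from NK cells, had 49.3, 54.8, 104 and 71.9 CPM in Asxl1 KO 1 to 4 and 114, 226.4, 298, 255 and 220.4 CPM in Rosa KO 1 to 5. In each of these 3 genes all Asxl1 KO libraries lay below all controls, and Rosa KO 1 was the lowest control. The log2 fold changes were −1.69 ± 0.28, adjusted p = 0.0011, −2.62 ± 0.38, adjusted p = 0.000676 and −1.60 ± 0.21, adjusted p = 9.48e-05. The Ly49 receptor genes Klra9 (−1.83 ± 0.30, adjusted p = 0.00128) and Klra3 (−1.75 ± 0.33, adjusted p = 0.00431) and the NKG2 genes Klrc1 (−1.13 ± 0.23, adjusted p = 0.0117) and Klrc2 (−1.89 ± 0.26, adjusted p = 0.000165) fell as well. These families hold near-identical copies whose reads the counting could split, and Klrc1 lost its call without Asxl1 KO 4. Cells of the NK lineage are marked by Ncr1, which had 0.185, 1.45, 0 and 0 CPM in Asxl1 KO 1 to 4 and at most 2.94 CPM in Rosa KO, near 0 in both. The NK marker list summed to 939 to 1487 CPM in the Asxl1 KO libraries and 2448 to 3320 CPM in Rosa KO, most of it Gzma, and 4 of its 11 tested genes fell while Eomes rose.

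Genes of cell trafficking included both falls and rises. S1pr5 (gene 94226, chr9:21242917-21248443), a sphingosine-1-phosphate receptor of terminal effector and NK cells, had 64.8, 43.8, 67.5 and 77.6 CPM in Asxl1 KO 1 to 4 and 191, 219.8, 335, 316 and 245 CPM in Rosa KO 1 to 5. The groups were separate (−2.04 ± 0.23, adjusted p = 1.18e-05). Of 11 receptors for egress and homing the other to pass was Cd69, which antagonises S1pr1, with 34.98, 49.97, 87.3 and 112 CPM in Asxl1 KO 1 to 4 and 48.03, 190.0, 228, 217 and 195 CPM in Rosa KO 1 to 5. Cd69 fell by the model (−0.91 ± 0.23, adjusted p = 0.0442), yet Rosa KO 1 lay within the Asxl1 KO range, and the call was lost without 6 of the 9 libraries. S1pr1, the main egress receptor, was at −0.52 ± 0.16, adjusted p = 0.0959 and Ccr7 at −0.56 ± 0.75, adjusted p = 0.79, and neither passed. Of 16 chemokine receptors Cxcr3, which guides T cells to interferon-induced chemokines, rose and Cx3cr1 fell. Cxcr3 (gene 12766, chrX:101731535-101734147) had 433, 152, 237 and 234 CPM in Asxl1 KO 1 to 4 and 184, 72.8, 79.4, 81.6 and 78.7 CPM in Rosa KO 1 to 5. Its log2 fold change was 1.40 ± 0.17, adjusted p = 2.35e-05, with 1.58 within run 3 and 1.23 within run 1. Cx3cr1, the fractalkine receptor of effector cells, had 373, 114, 155 and 174.4 CPM in Asxl1 KO 1 to 4 and 506, 329, 211, 345 and 314 CPM in Rosa KO 1 to 5, with a log2 fold change of −0.98 ± 0.24, adjusted p = 0.0376, and lost its call without 5 of the 9 libraries. Among ligands, Ccl9, a CC chemokine, had 51.8, 20.8, 21.6 and 33.4 CPM in Asxl1 KO 1 to 4 and 126.5, 148, 192, 137 and 150.2 CPM in Rosa KO 1 to 5. All of the Asxl1 KO values were below all controls (−2.37 ± 0.28, adjusted p = 2.31e-05). Xcl1, which attracts cross-presenting dendritic cells, had 24.8, 9.23, 37.9 and 32.4 CPM in Asxl1 KO 1 to 4 and 8.97, 2.69, 8.68, 7.48 and 4.08 CPM in Rosa KO 1 to 5, all Asxl1 KO values above all controls (2.27 ± 0.39, adjusted p = 0.00199).

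Of 18 tested integrin subunits 3 fell and 1 rose. Itgam, which encodes CD11b, had 122, 151, 135 and 194 CPM in Asxl1 KO 1 to 4 and 342, 365, 409, 368 and 396 CPM in Rosa KO 1 to 5. The groups were separate (−1.32 ± 0.18, adjusted p = 0.000104), with −1.23 within run 3 and −1.48 within run 1. Itgb1, the beta-1 chain, had 749, 643, 756 and 843 CPM in Asxl1 KO 1 to 4 and 1106, 1089, 1181, 1125 and 1146 CPM in Rosa KO 1 to 5, also separate (−0.63 ± 0.14, adjusted p = 0.0203), although the call was lost without Asxl1 KO 3. Itga1, a collagen receptor chain of resident cells, had 68.4, 151, 39.4 and 63.6 CPM in Asxl1 KO 1 to 4 and 130.5, 194, 133, 144 and 110.3 CPM in Rosa KO 1 to 5. Its log2 fold change was −1.19 ± 0.27, adjusted p = 0.0201, with Asxl1 KO 2 inside the Rosa KO range, and the call was lost without Asxl1 KO 3 or 4. Itgad rose (1.80 ± 0.46, adjusted p = 0.0442), but Rosa KO 1 (16.6 CPM) was within the Asxl1 KO range and the call was lost without 6 of the 9 libraries.

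Receptor chains for interleukin-12 and interleukin-18, which raise interferon-gamma in effector cells, were the cytokine receptors that fell. Il18rap, the accessory chain for interleukin-18, had 269.7, 363, 404 and 358 CPM in Asxl1 KO 1 to 4 and 472, 1069.5, 993, 956 and 1131 CPM in Rosa KO 1 to 5. The groups did not overlap (−1.45 ± 0.19, adjusted p = 8.13e-05). Its partner chain Il18r1 fell by the model (−0.77 ± 0.17, adjusted p = 0.0178), a call lost without Asxl1 KO 4, and Il12rb2 had 13.6, 7.52, 5.37 and 10.97 CPM in Asxl1 KO 1 to 4 and 33.8, 39.5, 31.9, 36.9 and 42.1 CPM in Rosa KO 1 to 5. Il12rb2 fell (−2.03 ± 0.39, adjusted p = 0.00502) and lost its call without Asxl1 KO 3. Il12rb2 overlaps Serbp1 over 3317 bases. Those 3 were the only calls among 28 cytokine receptors. Il7r, a receptor of memory cells, was at 0.93 ± 0.38, adjusted p = 0.242 and did not pass. None of 13 tested cytokine genes passed. Ifng was at −0.33 ± 0.27, adjusted p = 0.606, with −0.58 within run 3 and 1.01 within run 1. Rosa KO 1 had 81.9 CPM of Ifng against 398 to 423 CPM in Rosa KO 2 to 5.

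Genes of the T cell receptor and its proximal signalling rose where they passed, 8 of 29 tested, and none fell. Of all tested genes 0.814% rose. Lat, the adaptor that Zap70 phosphorylates, had 370.4, 197, 273 and 256 CPM in Asxl1 KO 1 to 4 and 117, 118, 155, 86.5 and 87.9 CPM in Rosa KO 1 to 5. All Asxl1 KO libraries exceeded all controls (1.33 ± 0.18, adjusted p = 8.64e-05; 1.23 within run 3 and 1.66 within run 1). Cd3g had 1343, 579, 1355 and 1302 CPM in Asxl1 KO 1 to 4 and 743, 700.4, 855, 591 and 572 CPM in Rosa KO 1 to 5, with Asxl1 KO 2 below 4 of 5 controls and the other 3 above all (0.83 ± 0.15, adjusted p = 0.00431). Sh2d1a, the adaptor SAP of SLAM receptors, had 122, 132.3, 243 and 204.3 CPM in Asxl1 KO 1 to 4 and 78.2, 74.5, 126.1, 88.6 and 79.5 CPM in Rosa KO 1 to 5, with a log2 fold change of 1.10 ± 0.21, adjusted p = 0.00431. Cd3d (0.79 ± 0.16, adjusted p = 0.0087), Fyn (0.61 ± 0.14, adjusted p = 0.0222), Cd2 (0.64 ± 0.16, adjusted p = 0.0383), Zap70 (0.85 ± 0.21, adjusted p = 0.0425) and Cd6 (0.90 ± 0.23, adjusted p = 0.0484) completed the list, and of the 8 only Lat and Cd3g kept their call without each library in turn. The B cell sum was lower in the Asxl1 KO libraries than in Rosa KO 2 to 5. With the mean log2 CPM of the B cell genes as a covariate, 4 of the 8 did not pass. For these edgeR gave adjusted p = 0.0528 for Fyn, 0.0913 for Cd2, 0.112 for Zap70 and 0.097 for Cd6, and the other 4 passed. The CD8 marker Cd8a was at 0.50 ± 0.14, adjusted p = 0.0671 and Cd3e at 0.41 ± 0.13, adjusted p = 0.117, and neither passed. Of 34 negative regulators of this pathway 1 passed, Tnfaip3, which encodes the deubiquitinase A20. Tnfaip3 had 264, 136.2, 474 and 500.3 CPM in Asxl1 KO 1 to 4 and 276, 1657, 1311, 1477 and 1492 CPM in Rosa KO 1 to 5, so that Rosa KO 1 lay among the Asxl1 KO libraries and the other controls far above. Its log2 fold change was −1.42 ± 0.34, adjusted p = 0.0491, with −1.62 within run 3 and −0.06 within run 1, and the difference between the runs was larger than the spread (adjusted p = 0.0279, edgeR with means by group and run). The call was lost without 6 of the 9 libraries.

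**Figure D2:**
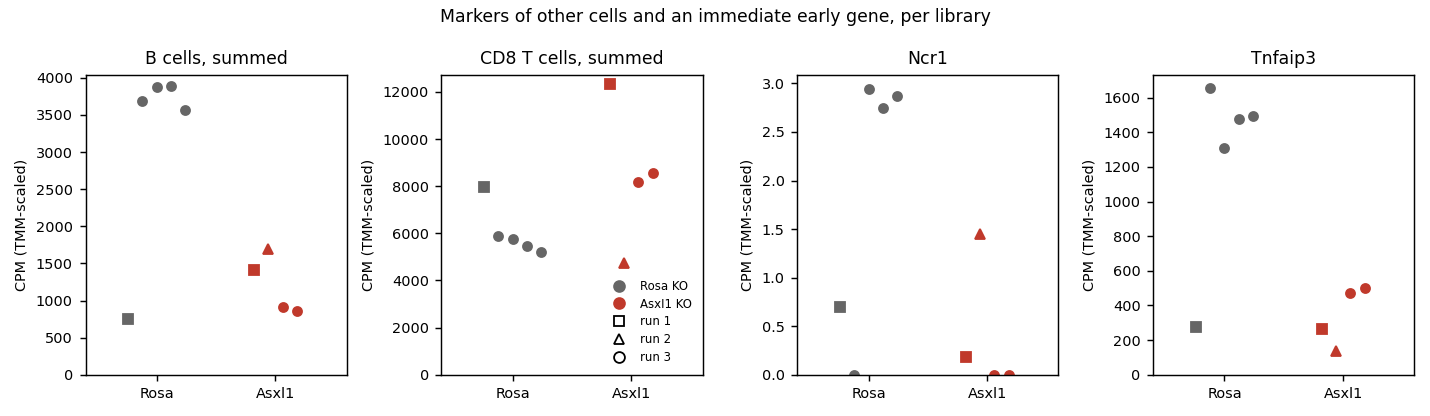
Summed CPM of 17 B cell and 9 CD8 T cell markers, and CPM of Ncr1 and Tnfaip3, in each library (grey Rosa KO, red Asxl1 KO; square, triangle and circle are runs 1, 2 and 3). Rosa KO 1 lies with the Asxl1 KO libraries in the B cell sum (756 CPM) and in Tnfaip3 (276 CPM).

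Of 33 tested immediate early genes, which signal and cell handling both induce, 4 fell (Tnfaip3, Klf6, Ier5 and Btg1) and Ier3 rose, and the median log2 fold change was −0.64. It was −0.80 within run 3, where 13 fell against 2.04% of all genes tested there, and 0.39 within run 1. Fos (−0.87 ± 0.82, adjusted p = 0.686), Jun (−1.36 ± 0.66, adjusted p = 0.354) and Junb (−1.09 ± 0.34, adjusted p = 0.102) did not pass. Ier3, a survival gene that NF-kappaB induces, had 22.4, 13.7, 38.4 and 30.01 CPM in Asxl1 KO 1 to 4 and 3.60, 5.30, 1.68, 7.27 and 6.80 CPM in Rosa KO 1 to 5. It went against the list, with all Asxl1 KO libraries above all controls (2.49 ± 0.45, adjusted p = 0.00335). Nfkbiz, which encodes an atypical NF-kappaB inhibitor, had 56.3, 85.6, 116 and 115 CPM in Asxl1 KO 1 to 4 and 110.3, 356, 268, 285 and 283 CPM in Rosa KO 1 to 5, with a log2 fold change of −1.25 ± 0.20, adjusted p = 0.000914. Of the B cell markers, all 17 had negative log2 fold changes (median −0.95) without passing, where 50% of all tested genes were positive. Within run 3 all 17 fell (median −2.01), and within run 1 their median was 0.80. Plasma cell markers summed to 334 to 415 CPM in the Asxl1 KO libraries and 484 to 818 CPM in Rosa KO. Dendritic cell markers summed to 1383 to 2234 CPM and 1378 to 4499 CPM, in the same order. With the B cell covariate, edgeR gave adjusted p = 0.0514 for Tnfaip3 and 0.0586 for Ier5, which did not pass. Klf6 (0.0119) and Btg1 (0.0421) passed. Apart from this covariate, the part of these cell types in the lower immediate early genes was not tested. None of the myeloid, neutrophil, dendritic, erythroid, gamma delta or CD4 T cell markers passed, although the erythroid sum was 3030 CPM in Asxl1 KO 1 and at most 750 CPM in the other 8 libraries. With the mean log2 CPM of the B cell genes as a covariate, 182 genes passed (73 higher and 109 lower), 148 of them among the 227. The 17 genes that passed in every setting were among the 182 by definition, since this covariate was 1 of the settings that chose them.

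**Figure D3:**
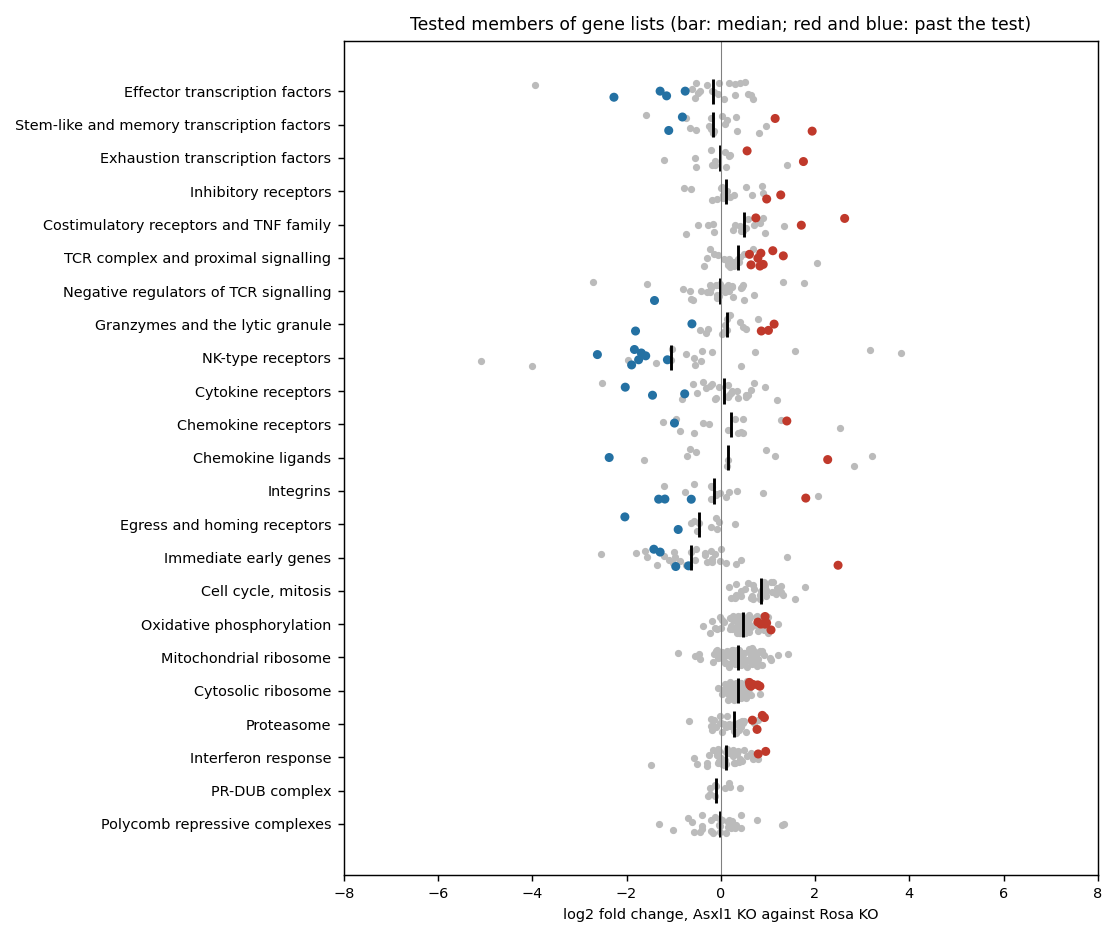
Log2 fold change (horizontal axis) of each tested member of 23 gene lists, Asxl1 KO against Rosa KO, with grey points for members that did not pass, red and blue points for higher and lower calls, and a bar at the list median. NK-type receptors have a median of −1.05 and mitosis genes one of 0.86 with no member past the test. The mitosis median was 0.39 within run 3 and 0.38 within run 1.

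Genes of protein and energy production had mostly positive log2 fold changes and few calls. Over all tested genes 50% of log2 fold changes were positive, and 49% within run 1. In oxidative phosphorylation 65 of 71 tested nuclear genes had positive log2 fold changes (median 0.47) and 6 rose, with Atp5e the most certain (0.94 ± 0.18, adjusted p = 0.00543). Cytosolic ribosomal protein genes had a median of 0.37 with 6 of 79 called, and mitochondrial ribosomal protein genes a median of 0.37 with none of 74 called. In the proteasome list 4 of 36 rose. These were the core subunit Psmb3 (0.92 ± 0.17, adjusted p = 0.00465), the immunoproteasome subunit Psmb10 (0.88 ± 0.19, adjusted p = 0.0149) and the activators Psme1 (0.77 ± 0.19, adjusted p = 0.0401) and Psme2 (0.67 ± 0.15, adjusted p = 0.0226). Psmb3 had 236, 81.6, 259.6 and 200.5 CPM in Asxl1 KO 1 to 4 and 92.0, 151, 151, 128 and 93.7 CPM in Rosa KO 1 to 5. As in Atp5e, Asxl1 KO 2 was below every control while the other 3 Asxl1 KO libraries were above them. Each of the 6 oxidative phosphorylation, 6 cytosolic ribosome and 4 proteasome calls was lost without Asxl1 KO 3. None of 35 mitosis genes passed, though all had positive values (median 0.86). That median was 0.39 within run 3 and 0.38 within run 1, where 21 of 35 were positive. For the proteasome it was 0.31 within run 3 and 0.020 within run 1, where 18 of 36 were positive, and for the cytosolic ribosome 0.47 and 0.20, with 46 of 79 positive within run 1. Of 31 replication genes Dut, which limits uracil in DNA, rose (0.85 ± 0.21, adjusted p = 0.0391). Among the 41 interferon response genes Ifi27l2a (0.79 ± 0.18, adjusted p = 0.0178) and Bst2 (0.95 ± 0.23, adjusted p = 0.0304) rose, and the first overlaps Ifi27. Ifi27l2a was at 176 CPM in Asxl1 KO 2, below every control. The calls of Dut, Ifi27l2a and Bst2 were each lost without Rosa KO 5 or Asxl1 KO 3, among other libraries. None of them passed in run 3 alone (edgeR adjusted p = 0.091, 0.0813 and 0.112). Glycolysis, cholesterol synthesis, p53 response, DNA methylation and imprinted genes held no call. In the remaining lists Bcl2l11, which encodes the death protein BIM, fell (−0.84 ± 0.19, adjusted p = 0.0201), as did Dnajb4 (−1.18 ± 0.28, adjusted p = 0.0276), and S100a6 rose (0.72 ± 0.17, adjusted p = 0.0257). All 3 calls were lost without Asxl1 KO 3.

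Further genes named by their small adjusted p had roles outside these lists. Cpeb2, which binds RNA and regulates translation, had 11.7, 35.3, 19.6 and 18.7 CPM in Asxl1 KO 1 to 4 and 48.8, 85.7, 49.1, 47.4 and 78.0 CPM in Rosa KO 1 to 5. The groups were separate (−1.90 ± 0.26, adjusted p = 0.000114). Retsat, a retinol saturase, had 1.91, 10.2, 3.25 and 8.72 CPM in Asxl1 KO 1 to 4 and 15.4, 24.4, 44.6, 30.7 and 58.8 CPM in Rosa KO 1 to 5, also separate (−2.76 ± 0.43, adjusted p = 0.000676). The splicing factor Tra2b (−0.86 ± 0.13, adjusted p = 0.00054) and Fndc3a (−1.07 ± 0.16, adjusted p = 0.000486) fell with every Asxl1 KO library below every control. The calcium pump Atp2b1 fell by the model (−0.99 ± 0.16, adjusted p = 0.000914) although Asxl1 KO 2 (370 CPM) was above all controls. Higher genes of this kind were Chst2, a sulfotransferase (1.68 ± 0.27, adjusted p = 0.000955), Clgn, a chaperone of the endoplasmic reticulum (1.90 ± 0.32, adjusted p = 0.0015), Arsb, a lysosomal sulfatase (0.90 ± 0.15, adjusted p = 0.00168), Dmac1, a complex I assembly factor (1.94 ± 0.35, adjusted p = 0.003), and Actn1, an actin crosslinker (1.31 ± 0.24, adjusted p = 0.00431). In Chst2, Clgn and Arsb the run 1 library was the highest of each group by a wide margin. The long noncoding RNA AW112010 had 1294, 397, 1413 and 1007 CPM in Asxl1 KO 1 to 4 and 499.7, 675, 690.4, 608 and 576 CPM in Rosa KO 1 to 5, with 3 Asxl1 KO libraries above all controls and Asxl1 KO 2 below them (1.02 ± 0.15, adjusted p = 0.000331).

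Leaving out single libraries moved the count of 227 to 80 without Asxl1 KO 3, 123 without Asxl1 KO 4, 373 without Asxl1 KO 2 and, without Rosa KO 5, to 55 higher and 71 lower genes. Within runs, 225 of the 227 genes kept their sign in run 3 (the other 2 were not tested there) and 143 passed there, where 424 of 13608 genes passed in all (3.12%), 1.07% higher and 2.04% lower. In run 1, with 1 library each, 223 of the 227 kept their sign, 113 of 113 higher and 110 of 114 lower genes. These are the same libraries that gave the calls, so the agreement is not independent support. Over all tested genes with a value, the sign was that of the whole comparison for 10881 of 13271 in run 3 and 9646 of 13880 in run 1 (69.5%). In the model with means by group and run, the difference between the run 3 and run 1 effects passed for 9 of the 227 genes and for 576 of all tested genes.

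**Figure D4:**
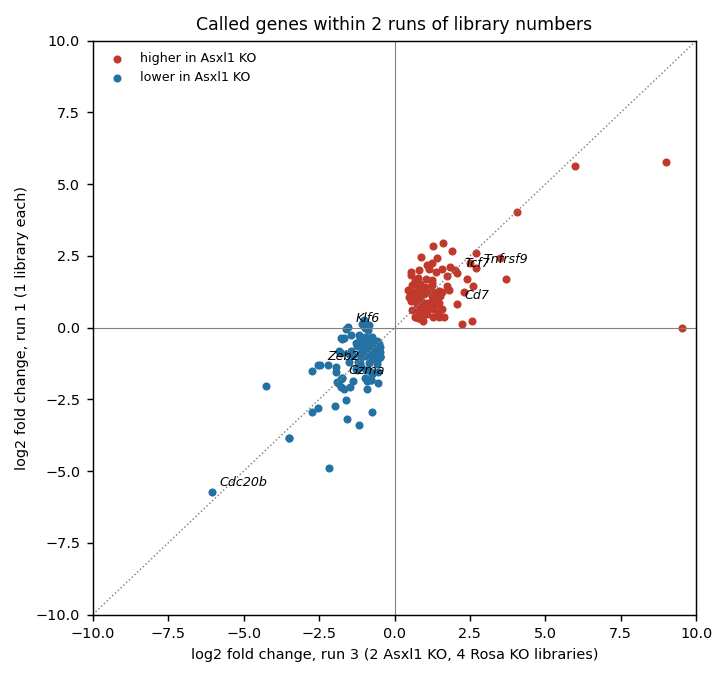
Log2 fold change of the called genes within run 3 (horizontal axis) and within run 1 (vertical axis), red for higher and blue for lower genes of the whole comparison. Most points lie in the lower left or upper right, and Klf6 lies at 0.01 on the vertical axis.

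Asxl1 KO was then set directly against the other 2 knockouts, since both share the Rosa KO controls with it. Against Tet2 KO, 62 genes were higher in Asxl1 KO (0.447%) and 16 lower (0.115%), and against Dnmt3a KO 38 were higher (0.274%) and 11 lower (0.0793%). The count against Tet2 KO was 49, 35 and 48 without Tet2 KO 1, 3 and 4, and 47 and 40 without Asxl1 KO 3 and 4. Against Dnmt3a KO it was 11, 16 and 20 without Dnmt3a KO 1, 2 and 3, 19, 236, 26 and 27 without Asxl1 KO 1 to 4, and 20 with the B cell covariate. Of the 227 genes, 21 also differed from Tet2 KO in the same direction and 19 from Dnmt3a KO. Several lead genes moved the same way in the other knockouts, set against the same Rosa KO libraries. Log2 fold changes for Tet2 KO and Dnmt3a KO were −1.67 and −1.69 for Zeb2 and −1.80 and −2.14 for S1pr5. They were −2.38 and −3.65 for Klrb1c and 1.95 and 1.79 for Tcf7, with edgeR adjusted p under 0.05 for all of these. By the same test Ccl9 (−1.63 and −2.35), Itgam (−1.33 and −1.36) and Klrg1 (−1.27 and −1.77) also passed in both. So did Klre1 (−0.97 and −1.50) and Il18rap (−0.99 and −1.25). Bhlhe40, Ctla2a and Cxcr3 passed only in Tet2 KO, and Klra9 only in Dnmt3a KO. Tnfrsf9, Lag3, Pdcd1, Lat, Cdc20b, Serpina3g and Ier3 passed in neither, and Gzma only in Dnmt3a KO (−1.19). Set directly against Dnmt3a KO, Tnfrsf9 (edgeR adjusted p = 0.0979), Lag3 (0.162) and Pdcd1 (0.0988) did not pass, while Lat did (0.00509). Against Tet2 KO, Tnfrsf9 (edgeR adjusted p = 0.000664), Lag3 (9.9e-05) and Pdcd1 (0.00449) passed and Lat (0.166) did not. Gzma differed from Tet2 KO (log2 difference −1.61 ± 0.17, adjusted p = 8.51e-06) and not from Dnmt3a KO (−0.62 ± 0.18, adjusted p = 0.172). Ctla2a differed from Dnmt3a KO (1.49 ± 0.25, adjusted p = 0.00451) and not from Tet2 KO (0.19 ± 0.23, adjusted p = 0.958). Tox was higher than in Tet2 KO (1.20 ± 0.15, adjusted p = 2.45e-05), and Itgb1 was lower (−1.32 ± 0.15, adjusted p = 1.4e-05). Ctsw was higher than in Dnmt3a KO (1.36 ± 0.22, adjusted p = 0.00392), and the ligase gene Neurl3 (−1.46 ± 0.25, adjusted p = 0.00509) was lower.

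Asxl1 KO differed from all 3 other groups in 5 genes, Cd7, Sh2d2a, Slc9a7, Ifrd1 and Atp10d. Cd7 had 64.9, 49.7, 164 and 133 CPM in Tet2 KO 1 to 4 and 154, 191, 62.97 and 80.8 CPM in Dnmt3a KO 1 to 4, all below the 4 Asxl1 KO libraries given above. Its log2 difference was 2.01 ± 0.23, adjusted p = 1.28e-05 from Tet2 KO and 2.00 ± 0.24, adjusted p = 9.47e-05 from Dnmt3a KO. Sh2d2a, which encodes a T cell adaptor that binds Lck, had 1258, 575, 544 and 558 CPM in Asxl1 KO 1 to 4 and 664, 367, 369.8, 411 and 349.6 CPM in Rosa KO 1 to 5. It had 345, 393, 255 and 287 CPM in Tet2 KO 1 to 4 and 313, 369, 343 and 304 CPM in Dnmt3a KO 1 to 4, with log2 differences of 1.03 ± 0.16, adjusted p = 0.000904 and 1.38 ± 0.17, adjusted p = 9.47e-05. Every Asxl1 KO value was above every Tet2 KO and Dnmt3a KO value, while against Rosa KO the call (0.57 ± 0.15, adjusted p = 0.0473) was lost without 8 of the 9 libraries.

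Ifrd1, a co-regulator of transcription, had 5.74, 20.7, 30.7 and 34.3 CPM in Asxl1 KO 1 to 4 and 19.7, 81.9, 131.2, 106 and 113 CPM in Rosa KO 1 to 5. It had 58.1, 56.2, 77.8 and 76.0 CPM in Tet2 KO 1 to 4 and 40.1, 28.2, 50.05 and 42.8 CPM in Dnmt3a KO 1 to 4. The log2 differences were −1.52 ± 0.27, adjusted p = 0.00418 from Tet2 KO and −1.81 ± 0.30, adjusted p = 0.00451 from Dnmt3a KO, and −1.70 ± 0.27, adjusted p = 0.000676 from Rosa KO, where Rosa KO 1 (19.7 CPM) lay within the Asxl1 KO range. Slc9a7, a sodium and proton exchanger of the Golgi, had 7.90, 25.6, 20.5 and 25.02 CPM in Asxl1 KO 1 to 4 and 35.3, 93.6, 50.1, 71.6 and 75.2 CPM in Rosa KO 1 to 5, all Asxl1 KO values below all controls (−1.76 ± 0.31, adjusted p = 0.00267). It was lower than in Tet2 KO by a log2 difference of −1.71 ± 0.32, adjusted p = 0.00598 and than in Dnmt3a KO by −1.73 ± 0.35, adjusted p = 0.0266. Atp10d, which RefSeq's GRCm38.p6 lists as a transcribed pseudogene, had 20.4, 166, 96.4 and 69.6 CPM in Asxl1 KO 1 to 4 and 59.4, 142, 133, 155 and 135.7 CPM in Rosa KO 1 to 5. All 5 controls lay within the Asxl1 KO range, below Asxl1 KO 2. It had 210.4, 277, 129.9 and 178 CPM in Tet2 KO 1 to 4 and 62.0, 50.2, 286 and 235 CPM in Dnmt3a KO 1 to 4, so that Tet2 KO 3 and Dnmt3a KO 1 and 2 lay below Asxl1 KO 2. By the model it was at −0.88 ± 0.19, adjusted p = 0.0125 against Rosa KO, −0.87 ± 0.19, adjusted p = 0.0306 against Tet2 KO and −0.96 ± 0.21, adjusted p = 0.0391 against Dnmt3a KO.

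Altogether 19 genes differed from both Tet2 KO and Dnmt3a KO in 1 direction, and the other 14 did not pass against Rosa KO. Among these Gpr55, a receptor for lysophospholipids, averaged 54.5 ± 29.0 CPM in the Asxl1 KO libraries and 49.6 ± 13.3 CPM in Rosa KO (SD, n = 4 and 5), against 4.20 CPM in Tet2 KO and 11.2 CPM in Dnmt3a KO. The log2 differences were 3.27 ± 0.38, adjusted p = 1.53e-05 and 2.49 ± 0.38, adjusted p = 0.00303. Entpd1, which encodes the ectonucleotidase CD39, differed by 1.47 ± 0.16, adjusted p = 8.51e-06 and 0.98 ± 0.17, adjusted p = 0.00509 and from Rosa KO by 0.07 ± 0.15, adjusted p = 0.877. Fasl, the death ligand, was higher than in both (1.00 ± 0.18, adjusted p = 0.00418 and 0.88 ± 0.18, adjusted p = 0.034), and so were Cxcr6 (1.11 ± 0.19, adjusted p = 0.00408 and 0.93 ± 0.21, adjusted p = 0.0463) and Cd160 (1.08 ± 0.25, adjusted p = 0.0491 and 1.35 ± 0.27, adjusted p = 0.0266). Against Rosa KO, Asxl1 KO was at −0.27 for Fasl, 0.47 for Cxcr6 and 0.88 for Cd160. Fasl fell against Rosa KO in Tet2 KO (−1.27, edgeR adjusted p = 0.000414) and in Dnmt3a KO (−1.15, adjusted p = 0.0051). The chemokine receptor gene Ccr2 was lower than in Tet2 KO (−0.97 ± 0.16, adjusted p = 0.00263) and did not pass against Rosa KO. The run term carries part of these contrasts, as Tet2 KO had no library in run 1 and Dnmt3a KO none in run 3.

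**Figure D5:**
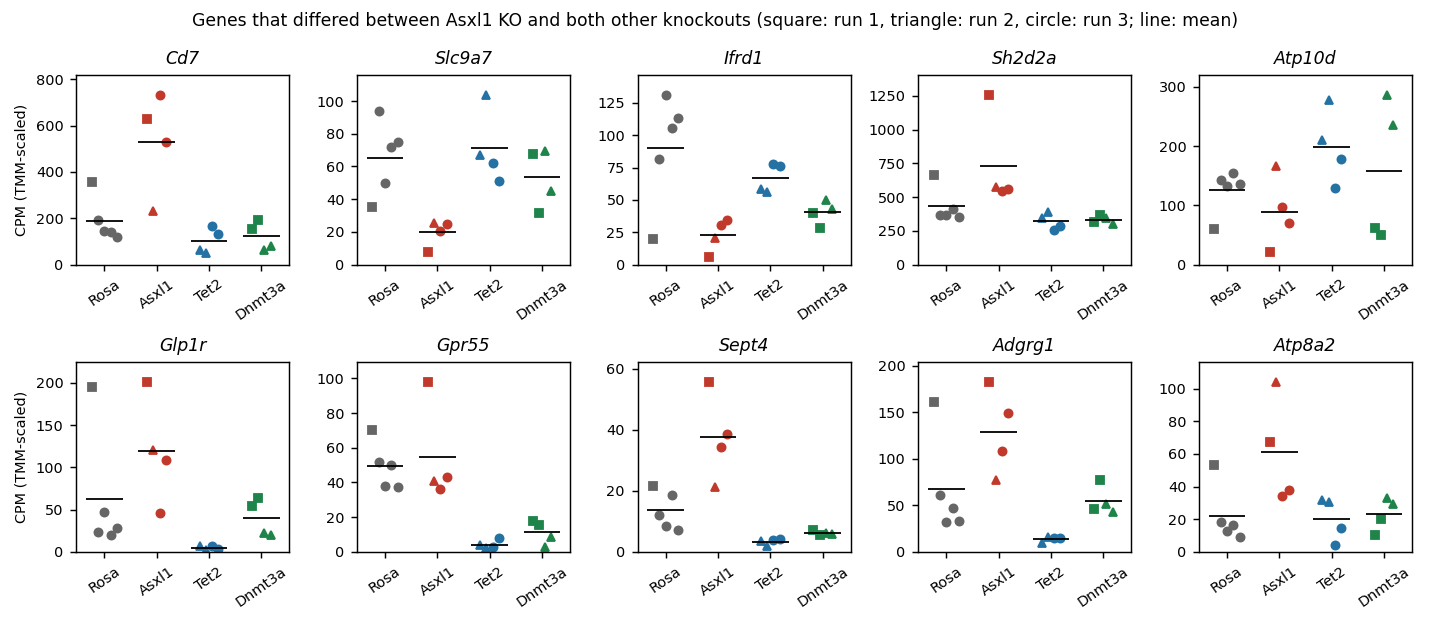
CPM per library in the 4 groups (horizontal axis) of the 5 genes that differed between Asxl1 KO and all other groups (upper row) and of 5 that differed from Tet2 KO and Dnmt3a KO without passing against Rosa KO (lower row). Lines are group means. Cd7 averages 530 CPM in the Asxl1 KO libraries and 190 CPM in Rosa KO, and Gpr55 averages 4.20 CPM in Tet2 KO.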

How the data were processed

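The authors deposited 1 table per library of raw counts per gene, listing 24594 genes by NCBI identifier and symbol. The mouse build mm10, STAR 2.5.3a and DESeq2 1.26.0 appear in the submitters' processing notes, without roles. The labels' protocols give a column RNA kit and a stranded total RNA library kit. The counting tool and its use of strand are not stated in the sources used here, and the labels' molecule field reads genomic DNA. Rows with no symbol (3, holding 5.12e-05% of counts) were left out. Counts of all 17 libraries were scaled by TMM, filtered with filterByExpr (minimum count 10, total 15), which left 13880 genes, and tested in R 4.3.3 by edgeR 4.0.16 (robust quasi-likelihood F test, 11 residual degrees of freedom, group and run as terms). Benjamini-Hochberg adjustment ran over all tested genes, with a threshold of 0.05. CPM is TMM-scaled, and within-run values of run 1 are differences of log2 CPM with a prior count of 2. The script was tested on simulated data. Library pairs of 1 group had a chi-square per degree of freedom of 35 or more, so none was counted as 1 sample. Asxl1 KO 3 and 4 were at 37.5, and every other Asxl1 KO pair at 167 or more. Rosa KO 2 and 5 were at 35. This measure cannot tell whether 2 libraries came from the same animal or culture. Gene coordinates are 1-based, from RefSeq's GRCm38.p6 (13870 identifiers matched), of which mm10 is another name.

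Genes named are Asxl1, the called members of the gene lists, up to 20 higher and 20 lower genes of smallest adjusted p with a mean of at least 5 CPM, 12 T cell genes whether called or not (not all are reported here), and up to 6 in each direction for each other knockout. Other genes, such as list members named with values that did not pass, were chosen after their values were seen. The members and lists were chosen with earlier results of these data known. Precision is limited by 4 and 5 libraries, and p-values cover the spread between them.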

Additional observations from a re-analysis of the deposited data

Results flagged for a closer look

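Among the named genes and both groups, 31 of 190 sets of libraries held 1 library far from the others of its group. The rule used flags about 1 in 20 sets of independent, normally distributed values. The sets here share the same 9 libraries and mostly called genes, so the 31 cannot be weighed against that rate. Rosa KO 1, the only control in run 1, was that library 18 times and Asxl1 KO 1 6 times. Causes were not tested. Asxl1 KO 1 lay far above the other Asxl1 KO libraries with 383 CPM of Tcf7, 304 CPM of Chst2, 95.1 CPM of Clgn, 657 CPM of Arsb, 152 CPM of Tox2 and 1258 CPM of Sh2d2a. Asxl1 KO 2 lay far below the other Asxl1 KO libraries with 136.01 CPM of Ctla2a, 579 CPM of Cd3g and 217 CPM of Ctsw. Rosa KO 1 lay far above the other Rosa KO libraries with 184 CPM of Cxcr3, 102 CPM of Tcf7, 95.6 CPM of Lag3, 73.4 CPM of Chst2, 201 CPM of Eomes, 40.1 CPM of Clgn, 419 CPM of Arsb, 77.7 CPM of Actn1, 28.4 CPM of Tox2, 1142 CPM of Tox, 664 CPM of Sh2d2a and 161 CPM of Asxl1. Rosa KO 1 lay far below the other Rosa KO libraries with 472 CPM of Il18rap, 227 CPM of Tra2b, 108 CPM of Klrb1c, 48.0 CPM of Cd69, 276 CPM of Tnfaip3 and 81.9 CPM of Ifng. Rosa KO 2 lay far above the other Rosa KO libraries with 1122 CPM of S100a6 and 139 CPM of Cd6. Rosa KO 3 lay far above the other Rosa KO libraries with 126.1 CPM of Sh2d1a and 128 CPM of Atp5g3.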

How the results depend on the processing

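Against Rosa KO, 227 genes passed. There were 23 with no run term, 568 with no filter on low counts, 677 by DESeq2's Wald test, 424 in run 3 alone, 98 without Asxl1 KO 3 and 4 (added after seeing the data) and 1021 within run 1 with the spread pooled over 17 libraries (also added). Leaving out 1 library gave 80 to 373 genes, with 80 without Asxl1 KO 3, 123 without Asxl1 KO 4, 373 without Asxl1 KO 2, and 55 higher and 71 lower genes without Rosa KO 5. Against Tet2 KO, 78 genes passed, and 27 with no run term, 192 with no filter, 176 by DESeq2, 618 in run 3 alone, and 35 to 87 with 1 library left out. Against Dnmt3a KO, 49 passed, and 6 with no run term, 19 from the libraries of both groups alone, 309 with no filter, 20 with the B cell covariate, 219 by DESeq2, and 11 to 236 with 1 library left out. The cause was not tested, apart from the tighter or looser set of genes and libraries each setting brings. Median-ratio factors gave 103 higher and 128 lower genes against Rosa KO, in place of 113 and 114.

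Replicate numbers did not pair the samples, as the deviations of same-numbered Asxl1 KO and Rosa KO libraries correlated at 0.153, −0.0402, 0.0615 and 0.0507. With a replicate block 51 genes passed against Rosa KO, 37 against Tet2 KO and 2 against Dnmt3a KO.

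The Asxl1 level, given as a log2 fold change, did not pass. It was 0.016 with no run term, 0.17 in run 3 alone, 0.18 within run 3 with pooled spread, and −1.20 within run 1 with pooled spread (edgeR, adjusted p = 0.0433). Run 1 has 1 library in each group, so this p and the 1021 genes above assume that a lone library varies like the others, and run 1 itself gives no test. It ran from −0.30 to 0.14 with 1 library left out. Sign also changed within run 1 for Klf6 (0.014), Klf3 (0.25), Ifng (1.01) and Havcr2 (−0.39), and for Havcr2 without Asxl1 KO 3 and 4 (−0.065). Of 90 called genes named or listed, 19 passed with no run term, 41 with the replicate block and 70 with the B cell covariate, and 42 passed with each library left out in turn.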
